A study of Sus scrofa with 6 samples.

Results

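Actin, myosin and tubulin genes encode the filaments, motors and filament-binding proteins that give an epithelial cell its shape. The members described here were chosen by symbol among the genes of the array. They comprise the ACTR and ARPC genes of the Arp2/3 complex and its relatives, the WAS family and BRK1, capping proteins, cofilins, profilins, thymosins, actinins, filamins, spectrins, PDLIM proteins, tropomyosins, calponins, myosins (MYO, MYH and MYL) and tubulin genes (TUBA, TUBB and TUBG). The symbol patterns matched 69 genes, and 67 of them are described, since MYO6 and MYL9 were left out by the rule. These were 67 of 6765 genes with a symbol, read by 108 probe sets. CFLAR, a regulator of death receptor signalling, shares only its first letters with the cofilins and was kept apart. The actins themselves are not matched by the rule and are given later among the surrounding genes.

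IPEC-1 and IPEC-J2 are spontaneously immortalised epithelial cell lines of the newborn pig intestine, and both grow as polarised monolayers. Each line stood for 1 group, untreated, with 3 cultures on membrane inserts and 1 Affymetrix Porcine Genome Array per culture. Both lines were kept in the same medium with serum, insulin-transferrin-selenium and epidermal growth factor. The labels give 7 days on membranes, whereas the paper's text gives a longer culture. A group is 1 cell line, so a difference is a difference between these lines, and the p-values measure the spread between the cultures of each line.

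Actin monomers assemble into filaments that carry the microvilli, the apical ring and the stress fibres of an epithelial cell. The Arp2/3 complex starts new branches on existing filaments when WAS family proteins activate it. Cofilin and profilin turn monomers over, tropomyosins and calponins coat filaments and set which motors and cutting proteins reach them, and myosins pull on filaments or carry cargo along them. Microtubules are built from alpha- and beta-tubulin and carry transport between the apical and basal side.

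Values are log2 signals, so a difference of 1 is a 2-fold change, and all differences are IPEC-J2 minus IPEC-1. The lowest deposited value of each array was exactly 4.00, called the floor here, and a signal at the floor gives only an upper limit. Between 40.5 and 48.3% of the probe sets of an array were at the floor, with the highest share on IPEC-J2 replicate 1. Signals seen on 1 array while the other arrays of the same line were at the floor lay, in 95% of cases, under 7.85 in IPEC-1 and under 7.78 in IPEC-J2, and these levels are used below to mark weak signals. All 12 epithelial markers on the array had a signal on at least 1 array, and EPCAM lay between 13.34 and 13.60, although no IPEC-J2 array gave a TJP1 signal above the floor, no IPEC-1 array a CLDN3 signal, and IPEC-1 replicate 2 no VIL1 signal. Of the 6 fibroblast markers on the array, COL3A1, DCN and LUM gave only floor values, while the log2 of the summed signals was 7.38 to 7.46 in IPEC-1 and 9.66 to 10.01 in IPEC-J2, a rise carried by THY1 alone, since COL1A2 and PDGFRB differed by -0.03 and -0.84 and were not called. The part of the fibroblast markers in the results below was not tested. In bulk RNA, fewer cells of a type and less RNA per cell cannot be told apart.

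Of the 67 members, 56 had a signal above the floor on at least 1 array and 45 on all 6. The remaining 11 were at the floor on every array, namely ACTR3B, WAS, ACTN2, PDLIM3, MYH2, MYO10, MYO7A, MYL2, MYL3, MYL4 and CNN1. Most of these encode proteins of muscle or blood cells, such as the sarcomeric light chains and WAS. A further 7 members had a signal on 1 array only (PDLIM4, PDLIM7, MYO1F, MYH10, MYH7, MYO1C and TUBA1A).

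Of the members, 10 passed the comparison of the lines with limma at an adjusted p under 0.05. ARPC1B, ARPC5, WASL, PDLIM1 and TPM4 were higher in IPEC-J2, and BRK1, PFN2, CNN3, TPM1 and TUBB were lower. The 5 higher members were 7.46% of the 67, against 9.46% of all 6765 genes called higher. The 5 lower members were likewise 7.46%, against 11.2% of all genes called lower. In 18 members (26.9%) the 3 IPEC-J2 signals did not overlap with the 3 IPEC-1 signals, against 38.7% of all genes. The shares of the cytoskeleton genes were thus not above those of the array as a whole. The median difference was -0.01 over the 56 measured members and -0.05 over all 5513 measured genes. Of the measured members, 22 lay within 0.25 of zero, and only PFN2, TPM1 and TUBB passed the test with more than a 2-fold change.

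**Figure D1:**
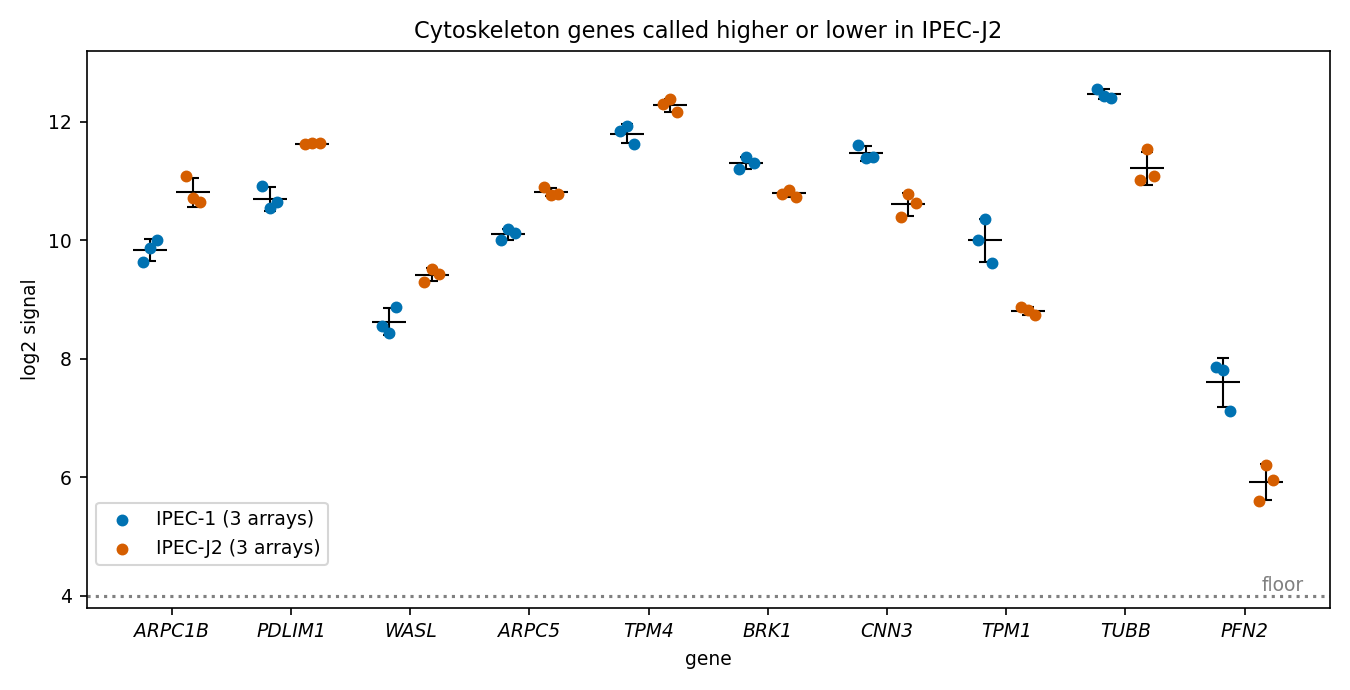
Log2 signal of the 10 cytoskeleton genes called between the lines, 1 point per array, with the mean and SD of the 3 arrays of each line and the floor of 4.00 as a dotted line. In each gene the IPEC-1 and IPEC-J2 points do not overlap, and the PFN2 signals of IPEC-J2 lie between 5.60 and 6.21, nearest to the floor.

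The sample descriptions of 2 pairs of arrays share a note whose meaning is not stated. Note A joins IPEC-1 replicate 1 with IPEC-J2 replicate 3, and note B joins IPEC-1 replicate 2 with IPEC-J2 replicate 1. Within each of these pairs, all 10 called members kept their direction. This had to be so, since their signals did not overlap between the lines. The median member difference was 0.00 in note A and -0.09 in note B (0.00 and -0.14 over all measured genes). With the note as a fixed block, 4 members were called, and WASL, ARPC5 and BRK1 were among the 10 of the comparison without a block. Of the 10, ARPC5, BRK1, PDLIM1 and TUBB stayed called whichever 1 array was left out.

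**Figure D2:**
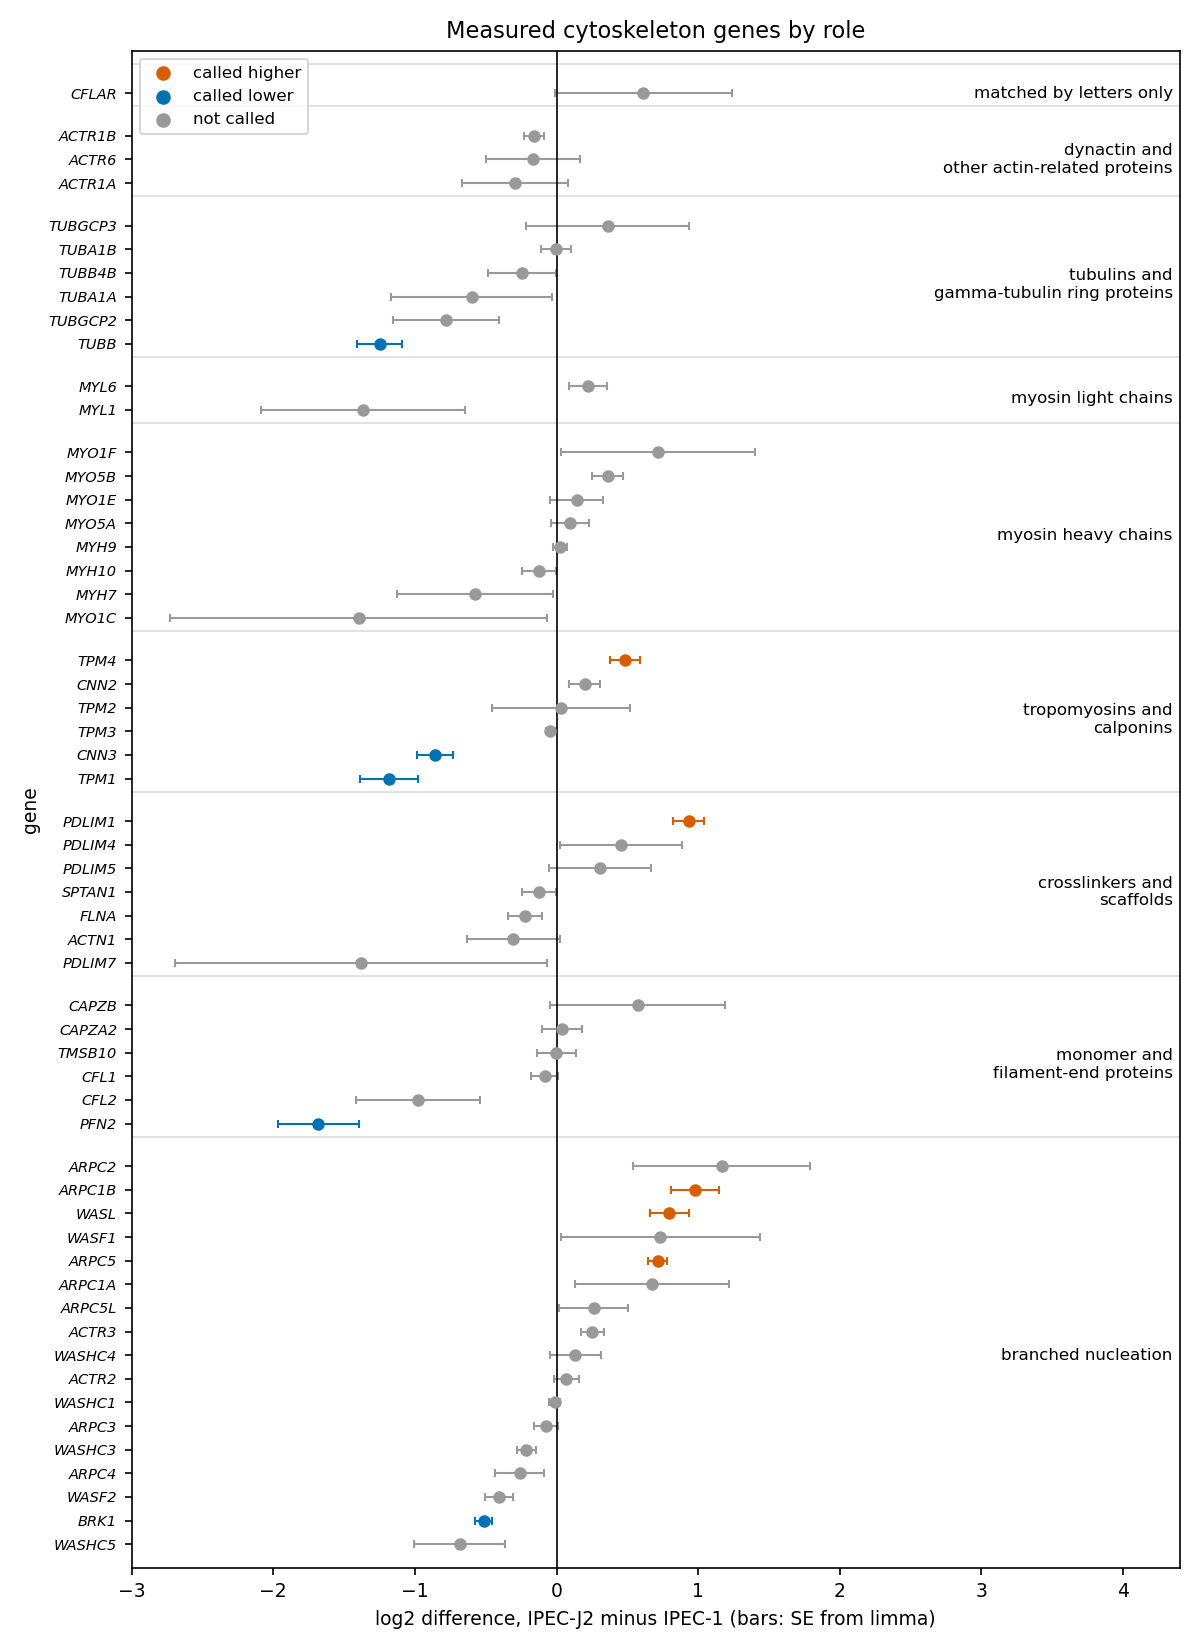
Log2 difference, IPEC-J2 minus IPEC-1, of the 56 measured cytoskeleton genes with the limma standard error, grouped by role and coloured by call at an adjusted p of 0.05. The 5 higher and 5 lower genes stand among 46 measured genes that were not called. The branched nucleation group, the largest with 17 of the 56 measured genes, holds 4 of the 10. Of all 6765 genes, 9.46% were called higher and 11.2% lower.

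The genes of branched actin nucleation comprised 19 members, 17 of them measured, and held calls in both directions. Subunits ARPC1B and ARPC5 of the Arp2/3 complex and its activator WASL (N-WASP) were higher in IPEC-J2, while BRK1, the smallest subunit of the WAVE complex, was lower. The median difference of the 17 was 0.13, with 10 above zero. In the order of replicates 1 to 3, which is kept throughout, the ARPC5 signals were 10.00, 10.19 and 10.12 for IPEC-1, against 10.90, 10.77 and 10.78 for IPEC-J2. The IPEC-J2 cultures lay close together and above each IPEC-1 culture. ARPC5 was 1.64-fold higher in IPEC-J2 (difference 0.71, SE 0.0662, limma adjusted p = 0.00496), with 0.78 within note A and 0.71 within note B.

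ARPC1B, which takes part in binding the WAS family activators, had signals of 9.63, 9.87 and 10.01 for IPEC-1, against 11.09, 10.71 and 10.64 for IPEC-J2. The lines did not overlap, with IPEC-J2 replicate 1 the highest culture. ARPC1B was 1.97-fold higher in IPEC-J2 (difference 0.98, SE 0.170, limma adjusted p = 0.0233). This call was kept only without IPEC-J2 replicate 1 (0.0389) and was lost when any other array was left out (limma adjusted p from 0.0534 to 0.0736) and with the note as a fixed block (0.0686).

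WASL couples signals from CDC42 and membrane lipids to the Arp2/3 complex. Its signals were 8.55, 8.45 and 8.88 for IPEC-1, against 9.31, 9.53 and 9.43 for IPEC-J2, without overlap. WASL was 1.74-fold higher in IPEC-J2 (difference 0.80, SE 0.139, limma adjusted p = 0.0235) and its 2 probe sets both were higher, by 0.99 and 0.60. One of them was weak in IPEC-1, and with that signal raised to the level for weak signals the change was 1.55-fold. The call held without IPEC-1 replicate 3 (0.0160) and with the note as a fixed block (0.0415), and was lost without any other array (0.0533 to 0.0898).

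BRK1 stabilises the WAVE complex, which activates Arp2/3 at the leading edge and at cell contacts downstream of RAC. Its signals were 11.21, 11.40 and 11.31 for IPEC-1, against 10.79, 10.85 and 10.74 for IPEC-J2. All IPEC-J2 cultures were below all IPEC-1 cultures, with little spread in either line. BRK1 was 1.43-fold lower in IPEC-J2 (difference -0.51, SE 0.0605, limma adjusted p = 0.00887), and it was called in 20 of 20 other settings. WASF2, the WAVE subunit that binds Arp2/3 directly, had signals of 10.72, 10.96 and 10.72 for IPEC-1, against 10.29, 10.52 and 10.36 for IPEC-J2. These did not overlap either, but the difference of -0.41 did not pass the test (limma adjusted p = 0.0561). WASF2 is given because its values were seen to lie just outside the threshold.

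The other Arp2/3 subunits were not called. ARPC3, a subunit of the complex, had signals of 12.40, 12.55 and 12.44 for IPEC-1, against 12.53, 12.38 and 12.26 for IPEC-J2, with overlap (difference -0.07, limma adjusted p = 0.671). The actin-related cores ACTR2 and ACTR3 differed by 0.07 and 0.25, and the ACTR3 groups did not overlap (9.39, 9.32 and 9.38 against 9.45, 9.73 and 9.66, limma adjusted p = 0.113). Its brightest probe set alone differed by 0.31 and passed (limma adjusted p = 0.0431). ARPC4 differed by -0.26. ARPC1A and ARPC5L differed by 0.67 and 0.26, both with overlap. ARPC2 differed by 1.17 without overlap. Its signals were weak in both lines, with means under the levels for weak signals, and ARPC2 was at the floor on IPEC-1 replicate 2. Thus within 1 complex, 2 subunits passed the test as higher. Of the other measured subunits, ARPC1A, ARPC2, ARPC5L, ACTR2 and ACTR3 lay above zero, and ARPC3 and ARPC4 below it. Of the WASH complex, which acts with Arp2/3 on endosomes, WASHC1, WASHC3, WASHC4 and WASHC5 differed by -0.01, -0.21, 0.13 and -0.68 and none passed. The Arp2/3 values other than ARPC3 and those of the WASH genes were picked out after they had been seen, to show the complexes in full.

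Among 6 monomer and filament-end genes, PFN2 was called lower and none was higher. PFN2, a profilin that supplies actin monomers to growing ends, had signals of 7.87, 7.82 and 7.12 for IPEC-1, against 5.60, 6.21 and 5.95 for IPEC-J2. No IPEC-J2 culture reached an IPEC-1 culture. The difference was -1.68 (3.21-fold lower, SE 0.285, limma adjusted p = 0.0220), the widest of the called members. Both means, 7.60 and 5.92, lay below both levels for weak signals, and with all signals raised to the higher level PFN2 was no longer called (0.712). It was called without IPEC-1 replicate 3 (0.0237) but not without any other array (0.0508 to 0.0825), nor with the note as a fixed block (0.115).

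CFL1, the main cofilin outside muscle, cuts and disassembles old filaments. Its signals of 11.91, 12.17 and 11.96 for IPEC-1, against 12.04, 11.91 and 11.84 for IPEC-J2 overlapped (difference -0.08, limma adjusted p = 0.655). TMSB10, which holds monomers in reserve, and the capping subunit CAPZA2 lay at -0.00 and 0.04. CFL2, the muscle form, was not called as a gene mean (difference -0.98, limma adjusted p = 0.220). Its brightest probe set gave 9.66, 9.50 and 9.15 for IPEC-1, against 8.11, 8.41 and 8.26 for IPEC-J2, and a fit on the brightest probe set per gene called it lower (difference -1.18, limma adjusted p = 0.0123). CFL2, TMSB10 and CAPZA2 were picked out after their values were seen.

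Of 9 crosslinkers and scaffolds, 7 were measured and PDLIM1 alone was called. PDLIM1 is a PDZ and LIM protein that ties alpha-actinin to stress fibres. Its signals were 10.92, 10.54 and 10.64 for IPEC-1, against 11.62, 11.64 and 11.64 for IPEC-J2. The IPEC-J2 cultures hardly differed from each other and all exceeded the IPEC-1 cultures. PDLIM1 was 1.91-fold higher in IPEC-J2 (difference 0.93, SE 0.108, limma adjusted p = 0.00863), with 0.72 in note A and 1.08 in note B. With the note as a fixed block the adjusted p was 0.0512. The alpha-actinin gene ACTN1, the filamin FLNA and the spectrin SPTAN1, large proteins that join filaments to each other or to the membrane, differed by -0.30, -0.22 and -0.12 and were not called. These 3 values were picked out after they were seen.

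Tropomyosins and calponins held calls in opposite directions within 1 family. TPM4 was higher in IPEC-J2, while TPM1 and the calponin CNN3 were lower, out of 7 members with 6 measured. Tropomyosins lie along the actin filament, and their forms differ in which myosins and severing proteins they admit. TPM4 signals were 11.85, 11.94 and 11.63 for IPEC-1, against 12.31, 12.38 and 12.17 for IPEC-J2. The groups did not overlap, but the change was small. TPM4 was 1.40-fold higher (difference 0.48, SE 0.106, limma adjusted p = 0.0432), with both probe sets higher by 0.45 and 0.51. The call was lost without any 1 of the 6 arrays (0.0624 to 0.122) and with the note as a fixed block (0.148).

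TPM1, a long tropomyosin of muscle and of stress fibres, had mean signals of 10.01, 10.36 and 9.63 for IPEC-1, against 8.88, 8.82 and 8.74 for IPEC-J2. The IPEC-J2 cultures lay together below the IPEC-1 cultures, which spread more. The difference was -1.18 (2.27-fold lower, SE 0.205, limma adjusted p = 0.0231). All 3 probe sets were lower, by -2.03, -0.91 and -0.61, but the widest of these came from a weak probe set that no IPEC-J2 array raised above the floor (5.65, 6.36 and 6.07 in IPEC-1). With that probe set raised to the level for weak signals TPM1 was 1.42-fold lower, and the brightest probe set by itself did not pass (limma adjusted p = 0.140). Without IPEC-1 replicate 2 or 3 the call held (0.0344 and 0.0173), and without any other array it was lost (0.0650 to 0.0901). It was also lost with the note as a fixed block (0.0759).

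CNN3, a calponin of tissues other than smooth muscle, binds actin and dampens myosin action. Its signals were 11.61, 11.39 and 11.40 for IPEC-1, against 10.40, 10.79 and 10.63 for IPEC-J2, without overlap. CNN3 was 1.82-fold lower (difference -0.86, SE 0.128, limma adjusted p = 0.0159), with -0.98 in note A and -0.99 in note B. The call was lost without IPEC-1 replicate 3 (0.0524), without IPEC-J2 replicate 3 (0.0646) and with the note as a fixed block (0.0651). CNN2, TPM2 and TPM3 differed by 0.20, 0.03 and -0.04 and were not called. Smooth muscle markers lay on the same side as TPM1 and CNN3, with a log2 of their summed signals of 8.66 to 10.34 in IPEC-1 and 6.82 to 8.04 in IPEC-J2. Of these 6 markers ACTA2, CNN1 and DES were at the floor on every array, and TAGLN and ACTG2 differed by -3.22 and -1.33 and were not called (limma adjusted p = 0.145 and 0.0865). TAGLN had the highest signals of the 6 in IPEC-1 (10.14, 9.81 and 8.08), so these sums mostly reflect TAGLN. SMTN was lower, by -0.37 (limma adjusted p = 0.00838). The striated muscle markers summed to 7.68 to 8.13 in IPEC-1 and to 6.32 to 6.96 in IPEC-J2 on the log2 scale, with TTN lower by -2.69 (limma adjusted p = 0.0353) and ACTC1, CKM and TNNT3 of 5 markers at the floor throughout. The TTN means, 7.49 and 4.80, and those of ACTG2 and SMTN lay under the levels for weak signals in both lines. TTN was at the floor on IPEC-J2 replicate 1. The lower sums were not particular to muscle. Leukocyte markers summed to 6.59 to 6.88 in IPEC-1 and 6.00 to 6.22 in IPEC-J2. Endothelial markers summed to 6.84 to 6.94 and 6.32 to 6.54, all near the floor. The epithelial and fibroblast sums were higher in IPEC-J2. The part of these markers in the TPM1 and CNN3 results was not tested.

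**Figure D3:**
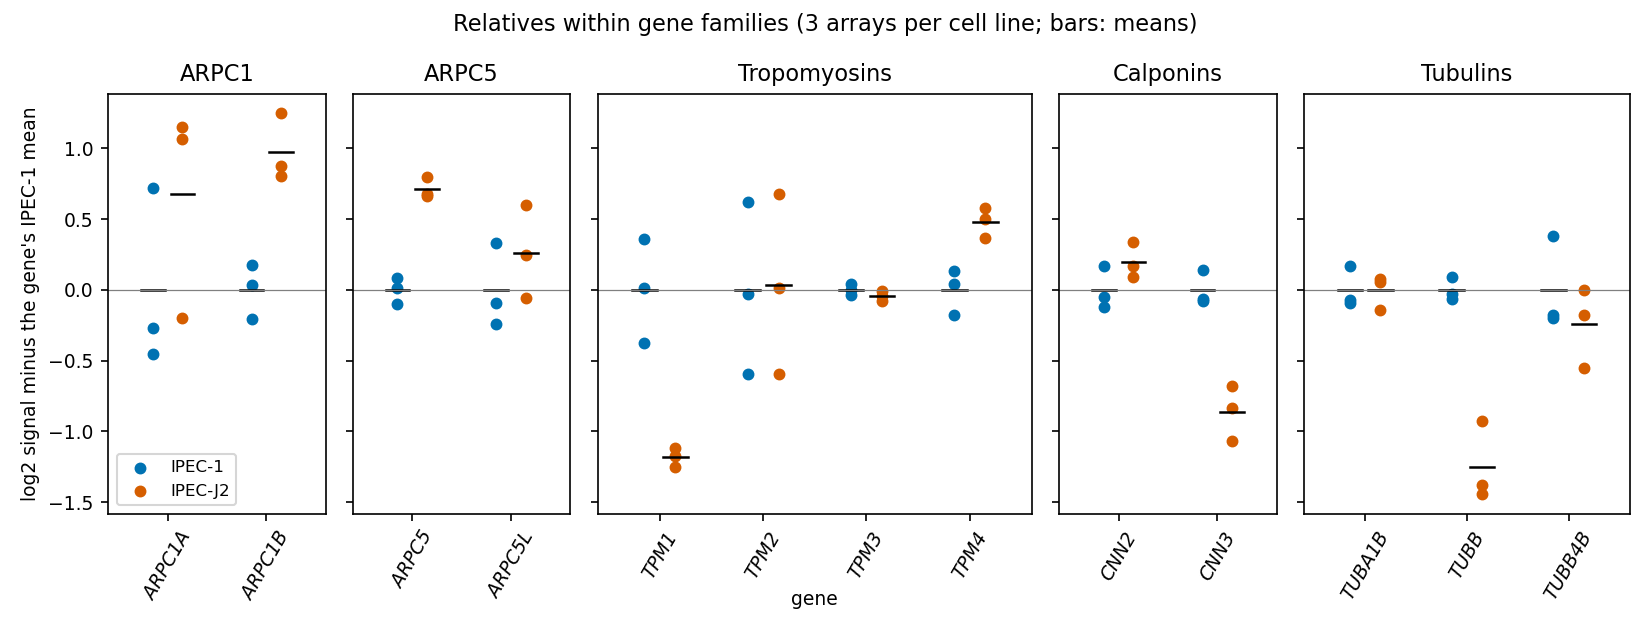
Log2 signal minus the mean IPEC-1 signal of the same gene, 1 point per array and a bar for the mean, for relatives in the ARPC1, ARPC5, tropomyosin, calponin and tubulin families. The IPEC-J2 mean lies 0.48 above the IPEC-1 mean for TPM4 and 1.18 below it for TPM1. For TPM3 and TUBA1B the IPEC-J2 mean is within 0.05 of the IPEC-1 mean, although single arrays lie further off.

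Relatives within families were also compared by the difference of their signals on each array, over 12 pairs chosen after the values were seen. With 3 arrays against 3, the smallest p that an exact two-sided permutation test allows is 0.1, so none can pass 0.05. The signal of TPM4 relative to TPM1 was higher in IPEC-J2 by 1.67, and in each IPEC-J2 culture it exceeded each IPEC-1 culture (exact p = 0.1, adjusted over the 12 pairs 0.2). The weak TPM1 probe set enters this value. TPM3 relative to TPM1 and TPM4 relative to TPM3 were higher by 1.14 and 0.53, with the same exact p. CNN3 relative to CNN2 was lower by -1.06, again without overlap. ARPC1B relative to ARPC1A differed by 0.30 with overlap (exact p = 0.7), and an ARPC1A probe set that was at the floor on 3 arrays enters this value. ARPC5L relative to ARPC5 differed by -0.45 (exact p = 0.2).

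None of the 11 myosin heavy chain genes was called, and 8 of them were measured. MYH9, the heavy chain of non-muscle myosin II in epithelia, had signals of 7.97, 8.12 and 7.96 for IPEC-1, against 8.06, 8.04 and 8.01 for IPEC-J2. This is the mean of a bright probe set and of one with floor values only, and the bright one differed by 0.05. MYO5B carries recycling vesicles to the apical membrane of enterocytes. Its signals were 10.58, 10.21 and 10.52 for IPEC-1, against 10.76, 10.81 and 10.82 for IPEC-J2. The groups did not overlap, but the difference of 0.36 did not pass the test (limma adjusted p = 0.0989). MYO1E and MYO5A differed by 0.14 and 0.09. MYH10, MYH7, MYO1C and MYO1F had a signal on a single array each. MYH9, MYO1E and MYO5A were picked out after their values were seen.

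Of 5 myosin light chains, the muscle forms MYL2, MYL3 and MYL4 were at the floor on every array. MYL6, the essential light chain of non-muscle and smooth muscle myosin, had signals of 12.28, 12.56 and 12.17 for IPEC-1, against 12.41, 12.69 and 12.57 for IPEC-J2, which overlapped (difference 0.22, limma adjusted p = 0.365). MYL1, a light chain of fast muscle, had weak signals on IPEC-1 replicates 1 and 3 only (6.60 and 5.50), was at the floor on the other 4 arrays and was not called (limma adjusted p = 0.284).

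Tubulin genes and gamma-tubulin ring genes numbered 6, all measured, and only the beta-tubulin TUBB was called. TUBB signals were 12.56, 12.44 and 12.40 for IPEC-1, against 11.02, 11.54 and 11.09 for IPEC-J2. The gap between the lines was wide compared with the spread of the cultures. TUBB was 2.38-fold lower in IPEC-J2 (difference -1.25, SE 0.162, limma adjusted p = 0.0111), with -1.47 in note A and -1.42 in note B. Its adjusted p was at most 0.0499 when 1 array was left out and 0.0690 with the note as a fixed block.

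The alpha-tubulin TUBA1B, which pairs with beta-tubulin in the dimer, had signals of 13.16, 13.42 and 13.18 for IPEC-1, against 13.33, 13.31 and 13.11 for IPEC-J2. Here the groups overlapped and the difference was -0.00. TUBB relative to TUBA1B was lower in IPEC-J2 by -1.25 without overlap (exact two-sided permutation p = 0.1, adjusted 0.2). TUBB4B, a further beta-tubulin, differed by -0.24 and was not called (limma adjusted p = 0.583). Tubulin genes are near copies of each other, so a probe set may read more than 1 of them. TUBGCP2, part of the ring that starts microtubules, had signals of 8.51, 8.64 and 8.92 for IPEC-1, against 7.18, 8.41 and 8.14 for IPEC-J2. Its difference of -0.78 did not pass as a gene mean (limma adjusted p = 0.244), while its brightest probe set did (-0.64, limma adjusted p = 0.0450). TUBGCP3, of the same ring, gave no settled direction, since its mean differed by 0.36 while its brighter probe set differed by -0.15 and the other was at the floor on 3 arrays. TUBB4B and the ring genes were picked out after their values were seen.

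The actin-related proteins outside Arp2/3 were 3 and none was called. ACTR1B, a subunit of the dynactin filament that links dynein to its cargo, had signals of 7.81, 7.94 and 7.86 for IPEC-1, against 7.59, 7.74 and 7.80 for IPEC-J2 (difference -0.16, limma adjusted p = 0.209), which narrowly did not overlap. CFLAR, matched by its letters only, differed by 0.61 with overlap (limma adjusted p = 0.605). Its brightest probe set alone was called higher (difference 1.00, limma adjusted p = 0.0163).

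**Figure D4:**
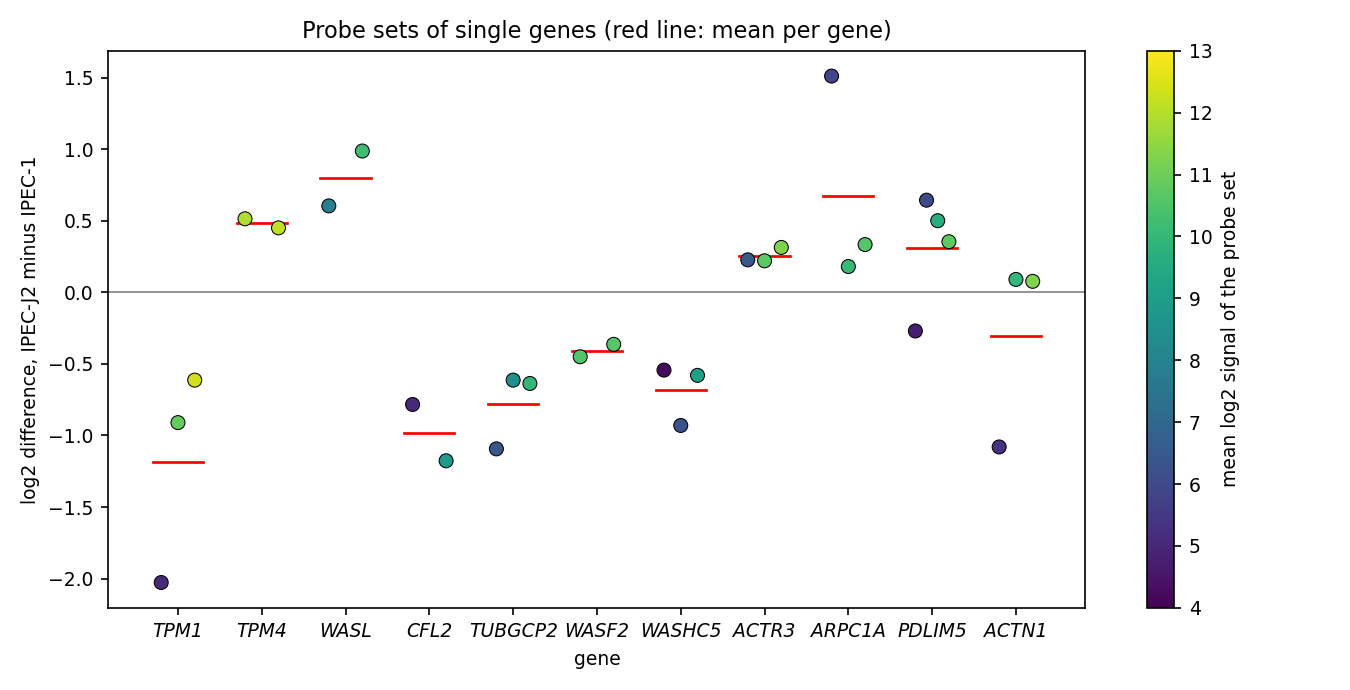
Log2 difference, IPEC-J2 minus IPEC-1, of the measured probe sets of 11 genes, coloured by the mean log2 signal of the probe set, with the mean per gene as a red line. The TPM4, WASL and TPM1 probe sets lie on 1 side of zero each, while PDLIM5 and ACTN1 have probe sets on both sides.

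Several probe sets per gene allowed a check within the members. Of 22 members with more than 1 measured probe set, 13 had all of them on the same side of zero and 9 had them on both sides. The share over all genes was not computed, so this count only describes the members. In ARPC1A, 2 bright probe sets differed by 0.18 and 0.33, and a weak one, which was at the floor on 3 arrays, by 1.51. ARPC1A was not called (difference 0.67, limma adjusted p = 0.518). Of PDLIM5, a relative of PDLIM1, the probe sets differed by 0.50, 0.35, 0.64 and -0.27, and the mean of 0.31 was not called. In ACTN1, 2 bright probe sets differed by 0.09 and 0.08 while a weak one lay at -1.08. These 3 genes were chosen for this description after their values were seen.

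Beyond the members, 5 actin genes were on the array and none was called. ACTB, the cytoplasmic beta-actin, had signals of 12.41, 12.23 and 12.06 for IPEC-1, against 12.37, 12.16 and 12.28 for IPEC-J2, with overlap (difference 0.04, limma adjusted p = 1.00). ACTG1, the cytoplasmic gamma-actin, and ACTG2, the enteric smooth muscle form, differed by -0.34 and -1.33 (limma adjusted p = 0.278 and 0.0865). In both genes the IPEC-J2 signals lay below the IPEC-1 signals without overlap. The means of both genes lay under the levels for weak signals in both lines. The ACTG1 value averages 6 probe sets, with means of 6.73 in IPEC-1 and 6.39 in IPEC-J2. ACTA2 and ACTC1, the actins of vascular smooth muscle and heart, were at the floor on every array. In 6 of 20 other settings, among them the one without IPEC-1 replicate 3, 1 actin was called lower.

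Other actin-binding proteins numbered 34 on the array, with 5 called higher, 2 lower and a median of -0.14 over the 30 measured. Of all 6765 genes, 9.46% were called higher and 11.2% lower. MSN (moesin), which ties the membrane to actin, had signals of 6.52, 6.31 and 6.23 for IPEC-1, against 8.49, 9.12 and 8.74 for IPEC-J2. It was 5.39-fold higher in IPEC-J2 (limma adjusted p = 0.00313). Set against the level for weak signals it was 2.10-fold higher, a value that was not tested by itself. CAPG, which caps filament ends, was 3.46-fold higher (limma adjusted p = 0.00251) and 1.66-fold higher against that level. EVL, which promotes filament growth, had no IPEC-J2 signal above the floor. It was called lower with the floor values as deposited (limma adjusted p = 0.000820). Against the level for weak signals it was at least 1.08-fold lower. CALD1 (caldesmon), a partner of tropomyosin on stress fibres, had signals of 11.44, 11.13 and 10.53 for IPEC-1, against 9.82, 9.54 and 9.88 for IPEC-J2. CALD1 was 2.44-fold lower (limma adjusted p = 0.0396), and that call was kept only without IPEC-1 replicate 3 (0.0229) and lost without any other array (0.0812 to 0.119) and with the note as a fixed block (0.0574). CALD1 thus lay on the same side as TPM1 and CNN3, and on the other side from TPM4 and PDLIM1, which were called higher.

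Of 41 microtubule partners on the array, 5 were called higher and 5 lower, against 9.46% and 11.2% of all genes. The median was -0.13 over the 37 measured. The dynein light chains DYNLT3 and DYNLRB1 were 2.27-fold and 1.62-fold higher in IPEC-J2 (limma adjusted p = 0.00960 and 0.00467). Against the level for weak signals DYNLT3 was 1.77-fold higher. STMN1 (stathmin), which holds tubulin dimers back from assembly, was 2.04-fold lower, with signals of 11.20, 11.37 and 11.40 for IPEC-1, against 10.10, 10.50 and 10.28 for IPEC-J2 (limma adjusted p = 0.00931). The dynein intermediate chain DYNC1I2 was 1.57-fold lower (limma adjusted p = 0.0118). All 4 stayed called whichever 1 array was left out, but the STMN1 call was lost with the note as a fixed block (0.0511).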

How the data were processed

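RNA of 3 IPEC-1 and 3 IPEC-J2 cultures (500 ng each) was hybridised to Affymetrix Porcine Genome Arrays. The authors deposited 1 log2 signal per probe set and array, made with GCOS 1.1.1 and PLIER per the submitters' processing notes. The methods name global scaling, background correction and normalization. Neither the base of the logarithm nor how the deposited arrays were normalised to each other is given in the sources used here. A floor of exactly 4.00 was read as a log2 scale, and no further normalization was applied. No detection calls were used. Precision is limited by the number of arrays.

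Of 24123 probe sets, 124 controls were left out, and 10069 of the others had 1 symbol in the platform annotation, 198 several and 13732 none here. They were averaged per symbol to 6765 genes, of which 1252 were at the floor on every array. All 67 members carried the same symbol in the RefSeq gene table. For the comparison of the lines, lmFit and eBayes of limma 3.58.1 (R 4.3.3) were run on all 6765 genes, p-values were adjusted by Benjamini-Hochberg with a threshold of 0.05, and the script was tested on simulated data. Arrays of the same line correlated at 0.969 to 0.988 where all 6 arrays had a signal above the floor.

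Named were all called members, the member with the highest mean signal of each role group, the actins, and per surrounding list and direction the 2 called genes with the largest difference. Genes named otherwise are said to have been picked after their values were seen, and this also holds for MYL1, CNN2, TPM2 and TPM3. The members and lists were chosen with earlier results of these data known, the lists from general knowledge. The genes of 1 surrounding list are not reported here. Alternatives covered the brightest probe set, floor values, normalization, offset, filters, eBayes options, the methods' t-test, the replicate number and the note as blocks, and leaving out each array. Raising weak signals was added after seeing the data. Both lines carry 1 cell bank number in the labels. No sequence or coordinate was used.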

Additional observations from a re-analysis of the deposited data

How the results depend on the processing

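The comparison without a block called 5 members higher and 5 lower. Deviations from the line means correlated at -0.06, -0.11 and 0.06 between cultures of the same number. Between cultures of different numbers they correlated at -0.11 to 0.17, with the highest value in the note B pair and 0.06 in the note A pair. The replicate numbers thus gave no sign of pairing, but 3 arrays per line cannot exclude it. With a replicate block, 2 members were higher and 2 lower, of which BRK1 and TPM4 were among the 10, and CNN2 and WASF2 were called in addition. With the note as a fixed block, 2 were higher and 2 lower, with WASHC3 in addition to WASL, ARPC5 and BRK1. Without 1 array, 2 to 4 members were higher and 2 to 4 lower. In the other alternatives 4 to 7 were higher and 4 to 7 lower. All 10 called members kept their direction in each setting. Leaving out an array could not change it, since their groups did not overlap, and the fixed blocks used the same mean differences. The brightest probe set per gene gave 7 higher and 6 lower, without TPM1 and with ACTR3, CFL2, CFLAR and TUBGCP2 in addition. Raising weak signals, an alternative chosen after seeing the data, dropped PFN2 and TPM1. At an unadjusted p under 0.05, limma gave 7 higher and 7 lower. Leaving out IPEC-J2 replicate 1, the array with the most probe sets at the floor, gave 7 called members, 6 of them among the 10, and moved the median of all measured genes from -0.05 to 0.02. Weak signals limit the gene means of 22 measured members, which lay under the levels for weak signals in both lines. Not all of these genes were weak throughout, since a gene mean can include dim probe sets or floor values. For ACTR1A, ACTR6, CFL2, CFLAR, TUBGCP3 and WASHC5 the brightest probe set had line means of 8.26 to 10.36, above these levels. Others, such as PFN2, were read by 1 weak probe set.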

Other observations

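Intermediate filaments, the keratin and lamin fibres that give epithelial cells and nuclei their stiffness, were set beside the actin and tubulin genes. Of 11 on the array, 9 were measured, with a median difference of -0.08. Of the 11, 1 was called higher and 2 lower, against 9.46% and 11.2% of all genes. KRT19, a keratin of simple epithelia, had signals of 13.17, 12.99 and 13.07 for IPEC-1, against 12.26, 12.33 and 12.24 for IPEC-J2. KRT19 was 1.74-fold lower in IPEC-J2 (limma adjusted p = 0.00223) and stayed called whichever 1 array was left out. LMNA, a lamin of the nuclear envelope, was 1.59-fold higher (limma adjusted p = 0.0231) and 1.33-fold higher against the level for weak signals. The call was kept only without IPEC-1 replicate 1 (0.0123). It was lost without any other array (0.0635 to 0.0801) and with the note as a fixed block (0.115). KRT10, a keratin of the epidermis, had signals of 8.08, 8.26 and 8.22 for IPEC-1, against 7.34, 7.63 and 7.68 for IPEC-J2. KRT10 was 1.55-fold lower (limma adjusted p = 0.0251) and 1.33-fold lower against the level for weak signals. Its call was kept only without IPEC-J2 replicate 1 (0.0251). It was lost without any other array (0.0569 to 0.0877) and with that block (0.118).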
